A study of Mus musculus with 16 samples.

Results

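Classical dendritic cells sorted for CD172a (the product of Sirpa, the surface protein used to sort the cDC2 subset) were compared between 2 sources, an activated bone marrow culture and the unstimulated spleen. The 8 arrays with CD172a in their sample titles were taken out of the 16 arrays of the series, 4 from culture and 4 from spleen, each from a different mouse. The mice shared the B6 background and a GFP allele at 1 copy of Zbtb46 (Zbtb46 GFP/+), a transcription factor of the classical dendritic cell lineage. In each source 2 mice were Ciita +/+ (WT) and 2 were Ciita -/- (KO). Ciita is the transactivator of the MHC class II genes, and the labels leave the deleted stretch unstated. For the cultures, whole bone marrow was kept for 9 days with 5% Flt3l, treated with gamma interferon and then with LPS for 4 hours, and sorted. The design text gives 16 hours of gamma interferon, whereas the growth protocol gives 22. The spleen cells are labelled homeostatic and received no treatment. The remaining 8 arrays held CD24+ cells of the same 8 mice. No cultured cells without activation and no activated spleen cells are among the 16 arrays, so organ, culture and activation cannot be told apart, and nor can mouse set or the set in which the arrays were normalized.

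Flt3l is the growth factor from which dendritic cells develop in bone marrow culture. cDC2 cells present antigen on MHC class II molecules to CD4 T cells, and in the spleen many carry CD4 and Esam and depend on Notch2 and lymphotoxin signals. Gamma interferon acts through its receptor and JAK kinases, and many of its target genes hold GAS elements. LPS is bound by CD14 and by Tlr4 with its partner Ly96 (MD-2) and activates NF-kB and interferon regulatory factors, leading to inflammatory cytokines, type I interferon response genes and the maturation program of dendritic cells.

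Levels are given as log2 signal minus the median of the array, so 0 is the level of the median probe set. The centring was needed because the median log2 signal ranged over 6.87 to 6.92 among culture arrays but 7.29 to 7.30 among spleen arrays. The 4 values of a source are always given in the order WT replicate 1, WT replicate 2, KO replicate 1, KO replicate 2. The number of arrays limits the precision, and the deposited values carry no detection call, so a low level cannot be told from background. The lower quartile of the arrays lay between -1.28 and -1.23, and no fold is given where all 4 arrays of a source were under it, since the size of such a change rests on an unknown floor. Log2 changes of such genes are still given, with the same limit on their size. Among these genes were Clec4a2, Clec4n, Clec10a, Spic, Nlrc4, Scd1, Il10 and Tlr4, each under the lower quartile in all 4 culture arrays. Changes are culture minus spleen on the log2 scale with their standard error (SE), from limma fitted to all 19187 autosomal genes with 1 named probe set or more. A gene was called at a Benjamini-Hochberg adjusted p under 0.05. Near-identical relatives can share probe signal, so values of single members of the Iigp1, Gbp, Ifi200, Ifit, Clec4 and MHC families are uncertain in that respect.

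The label of the cells was first checked against marker genes. Sirpa itself was at 4.20, 4.46, 4.36 and 4.28 in culture and at 5.37, 5.36, 5.40 and 5.28 in spleen. It thus stayed far above the array median in both sources, 2.04-fold lower in culture. Zbtb46 was at 2.10 to 2.39 in culture and 1.04 to 1.10 in spleen, and Flt3, the receptor for Flt3l, was at 3.74 to 4.11 and 4.26 to 4.56. The cDC1 markers Xcr1, a chemokine receptor, and Clec9a, a receptor for dead cells, were between -0.81 and 0.69 in all 8 arrays. Itgam (CD11b), which is used to define cDC2 cells, was at 1.0, 1.24, 0.34 and -0.30 in culture, against 3.41, 3.35, 3.44 and 3.15 in spleen. Cultured CD172a+ cells therefore carried the sorting marker and the dendritic cell lineage gene. Itgam was lower in every culture array than in every spleen array, with little of it in both KO arrays. Itgax (CD11c) was lower in culture too, and 24 of 25 cDC2 markers fell at least 2-fold, as described below. Adgre1, a macrophage receptor, was at 0.00 to 1.36 in culture and 3.55 to 3.76 in spleen, and Spic, a transcription factor of red pulp macrophages, at -1.83 to -1.39 and 1.15 to 1.77.

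The sources differed over most of the transcriptome. Of 19187 genes tested, 15028 (78.3%) were called, 8955 (46.7%) higher and 6073 (31.7%) lower in culture. The split depends on the centring: without it, 3245 genes were called higher and 11611 lower, and the median gene change moved from 0.12 to -0.28. Every change and every list median below differs by the same -0.396 without it. Because so many genes were called, counts below require in addition a change of at least 2-fold, which 1281 genes (6.68%) met upward and 1995 (10.4%) downward. At least 4-fold changes were reached by 423 genes upward and 601 downward, and at least 16-fold changes by 59 and 54. The plot of mean levels shows the 20 largest rises leaving levels near or under the array median in spleen for high levels in culture, and the 20 largest falls doing the reverse.

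**Figure D1:**
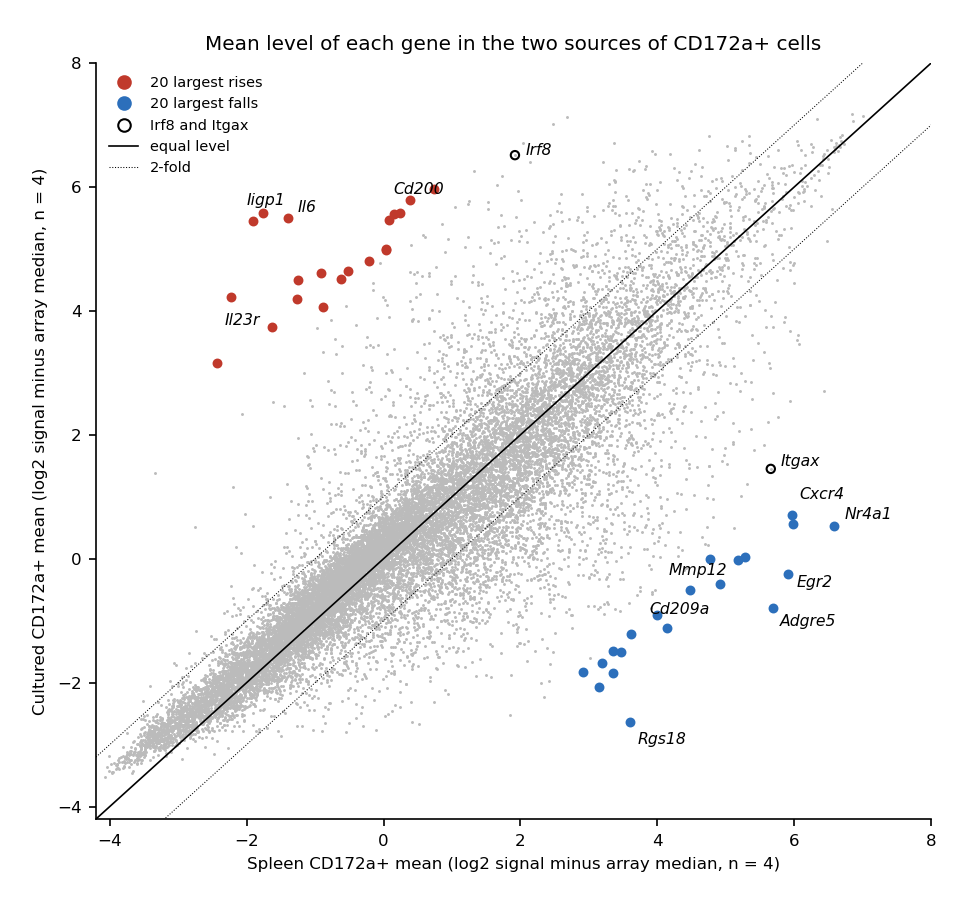
Mean level of each of 19187 genes (dots) in the 4 cultured CD172a+ arrays (vertical axis) against the 4 spleen CD172a+ arrays (horizontal axis), both as log2 signal minus array median. Red and blue dots are the 20 largest rises and falls among called genes whose arrays did not overlap, open circles mark Irf8 and Itgax, and dotted lines mark 2-fold. Iigp1 and Il6 move from below the array median to between 5 and 6, and Rgs18 ends lowest in culture among the 20 largest falls.

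The largest rises were of interferon-induced genes, a cytokine, cytokine receptors and maturation genes. Iigp1, an interferon-induced GTPase that attacks the vacuoles of intracellular parasites, was at 5.39, 5.55, 5.50 and 5.37 in the culture arrays. In spleen it was at -2.06, -1.79, -2.02 and -1.76, under the lower quartile of all 4 arrays. The measured change was 7.36 (SE 0.085), with a limma adjusted p of 2.96e-11. Its relatives Gm4951 and Gm4841 rose by 7.34 and 5.59. The other genes among the 20 largest rises were Il6, Il23r, Il2ra, Ubd, Ifi205, Bcl2l1, Cd200, Mmp25, Cd70 and Ccl22, described with their groups, and 7 that are in no list used here. Those were Gpr33 (5.76), an orphan receptor, Abtb2 (5.38), Atxn1 (5.38), Car13 (5.13), a cytosolic carbonic anhydrase, Serpinb9 (5.01), an inhibitor of granzyme B, Net1 (4.95), an exchange factor for RhoA, and Mab21l3 (4.94). Of the 20, 13 had a spleen mean below the array median, and 4 (Iigp1, Gm4951, Gm4841 and Il23r) were under the lower quartile in every spleen array, so the order of the rises is uncertain.

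The promoters of 6 genes that rose are shown because they hold sequences like the elements through which interferons and NF-kB act. The 250 bases before the start site are given 5′ to 3′ on the gene's strand, from RefSeq on GRCm38.p6, with each match to 3 motifs in capitals: TTCNNNGAA (GAS-like), an ISRE-like motif of TTTC, any 2 bases and TTTC (bound by interferon regulatory factors), and an NF-kB-like motif of GGGA, any 1 base and TTTCC, each searched on both strands. The 6 were chosen after the matches were seen. Irf8 and Irf1 have more than 1 listed start, of which the one with matches is shown.
Irf8, chr8:120736108-120736357, plus strand: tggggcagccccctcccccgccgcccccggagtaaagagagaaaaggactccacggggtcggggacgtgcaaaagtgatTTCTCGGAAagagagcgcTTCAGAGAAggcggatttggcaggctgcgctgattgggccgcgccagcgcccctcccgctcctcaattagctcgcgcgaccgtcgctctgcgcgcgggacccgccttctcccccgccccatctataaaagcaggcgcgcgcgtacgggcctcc
Irf1, chr11:53769764-53770013, plus strand: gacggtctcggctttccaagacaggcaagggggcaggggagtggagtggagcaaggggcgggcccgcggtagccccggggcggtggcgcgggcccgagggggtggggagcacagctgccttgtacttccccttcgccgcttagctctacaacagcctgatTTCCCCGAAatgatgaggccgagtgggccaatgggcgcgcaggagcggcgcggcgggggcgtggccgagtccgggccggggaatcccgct
Gbp5, chr3:142496684-142496933, plus strand: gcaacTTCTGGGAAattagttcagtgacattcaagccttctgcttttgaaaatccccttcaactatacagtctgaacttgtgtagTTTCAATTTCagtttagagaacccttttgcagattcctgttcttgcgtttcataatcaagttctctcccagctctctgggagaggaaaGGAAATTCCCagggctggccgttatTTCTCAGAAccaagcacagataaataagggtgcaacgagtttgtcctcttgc
Gbp7, chr3:142530086-142530335, plus strand: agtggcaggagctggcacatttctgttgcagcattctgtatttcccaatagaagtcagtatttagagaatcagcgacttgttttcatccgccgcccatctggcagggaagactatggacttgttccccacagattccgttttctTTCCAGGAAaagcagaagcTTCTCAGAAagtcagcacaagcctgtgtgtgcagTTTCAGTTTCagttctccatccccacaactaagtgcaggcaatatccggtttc
Cxcl10, chr5:92348890-92349139, minus strand: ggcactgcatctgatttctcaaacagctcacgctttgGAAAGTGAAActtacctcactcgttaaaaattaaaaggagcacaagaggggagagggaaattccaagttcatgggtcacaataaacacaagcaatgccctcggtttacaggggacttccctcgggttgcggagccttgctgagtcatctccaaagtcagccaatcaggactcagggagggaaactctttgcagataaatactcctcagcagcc
Il6, chr5:30012864-30013113, plus strand: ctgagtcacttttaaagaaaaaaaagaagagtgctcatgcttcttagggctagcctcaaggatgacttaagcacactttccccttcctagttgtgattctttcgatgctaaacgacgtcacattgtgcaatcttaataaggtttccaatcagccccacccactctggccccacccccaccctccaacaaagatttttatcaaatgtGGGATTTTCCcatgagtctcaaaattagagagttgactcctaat

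In Irf8 the GAS-like matches begin 171 and 153 bases before the start, and in Irf1 the single one begins 90 bases before it. Gbp5 holds matches to all 3 motifs and Gbp7 to the GAS-like and ISRE-like ones. The capitals in Cxcl10 are an ISRE-like match at 213 bases and those in Il6 an NF-kB-like match at 44 bases before the start. No 2 matches in these 6 stretches overlap. Over the 15008 tested genes with a promoter in the table, 7.74% held the GAS-like, 3.42% the ISRE-like and 0.466% the NF-kB-like motif. Among the 331 such genes at least 4-fold higher in culture the shares were 7.25%, 7.85% and 1.81%. Among those at least 4-fold lower, 47 of 470 held the GAS-like motif, 4.26% the ISRE-like and 1.28% the NF-kB-like one. The GAS-like motif was thus more common among the genes that fell than among those that rose or over all genes. The ISRE-like and NF-kB-like motifs were most common among the genes that rose. These differences were not tested. Of the 4 gamma interferon induced GTPases with a promoter in the table, all 4 held the ISRE-like motif and 2 the GAS-like one. A match is a string of letters and was not tested as a binding site.

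Gamma interferon induced GTPases, which act on intracellular pathogens, were higher as a group. All 9 measured members of the list of 17 rose at least 2-fold and none fell, with a median change of 3.20 against 0.12 over all genes. Gbp5, a guanylate-binding protein, was at 6.22, 6.24, 6.29 and 6.24 in culture and 1.3, 1.20, 1.33 and 1.47 in spleen. The 4 arrays of each source lay close together and far from the other source, and Gbp5 rose 30.4-fold (change 4.93, SE 0.057, limma adjusted p = 2.96e-11). Irgm1, a regulator of the other immunity-related GTPases, rose by 3.52, Gbp7 by 3.42, Gbp11 by 3.20, Gbp3 by 3.18, Gbp4 by 2.75, Gbp9 by 1.73 and Gbp8 by 1.37.

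Of 22 other measured genes of the gamma interferon response, 14 rose and 3 fell at least 2-fold (median change 1.67). Irf1, the transcription factor that carries much of this response, was at 4.95, 4.81, 4.92 and 4.76 in culture and 1.71, 1.67, 1.72 and 1.78 in spleen, an 8.8-fold rise (adjusted p = 2.11e-10, limma). Cxcl9, a ligand of Cxcr3 on T cells, was at 6.4, 6.22, 6.14 and 5.97 in culture and 1.76, 1.91, 1.33 and 1.92 in spleen and rose 21.9-fold. The spleen array of KO replicate 1 was the lowest of its source for Cxcl9, and no culture array came near the spleen range. Ubd, a ubiquitin-like protein, rose by 5.45, Cxcl10, another Cxcr3 ligand, by 4.64, Nlrc5, the transactivator of class I genes, by 2.65, Il18bp, the inhibitor of IL-18, by 2.31, and Cd274 (PD-L1) by 2.31. Acod1, which makes itaconate, rose by 2.17 and Ido1, which degrades tryptophan, by 1.45. The 3 members that fell at least 2-fold were Slamf8 (-1.76), Ciita (-1.75) and Casp1 (-1.26), the protease that matures IL-1beta and IL-18. Ciita is the gene deleted in the KO mice, and in WT arrays alone its change was -0.55 and not called (adjusted p = 0.15, limma).

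Class I antigen presentation genes, whose transcription Nlrc5 drives, were higher in part. Of 18 measured, 8 rose at least 2-fold and none fell that far (median 0.88). Tapbp, which loads peptide onto class I, rose by 2.22, its relative Tapbpl by 2.03, the peptide transporter subunits Tap1 and Tap2 by 1.76 and 1.35, and the immunoproteasome subunit Psmb8 by 1.16.

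Type I interferon response genes were nearly all higher. Of 25 measured, 21 rose and 1 fell at least 2-fold, and the median change was 2.28. Mx1, an antiviral GTPase, was at 4.22, 4.17, 4.35 and 4.17 in culture and -0.20, -0.079, 0.06 and 0.18 in spleen, an 18.8-fold rise. Ifit2, which restricts viral translation, was at 5.58, 5.79, 5.91 and 5.80 and 0.91, 0.92, 1.84 and 1.32, with the highest spleen values in the KO arrays. Ifi205 of the Ifi200 family rose by 5.41, Oasl1 by 4.49, Ifit1 by 3.78, Cmpk2 by 3.76, Mx2 by 3.65, Zbp1, a sensor of Z-form nucleic acid, by 3.07, and Irf7, the factor that amplifies type I interferon, by 2.21. The exception was Oas2, an oligoadenylate synthetase, at 1.65, 2.03, 1.94 and 1.67 in culture and 2.84, 3.08, 3.40 and 3.30 in spleen, a change of -1.33 (SE 0.1).

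**Figure D2:**
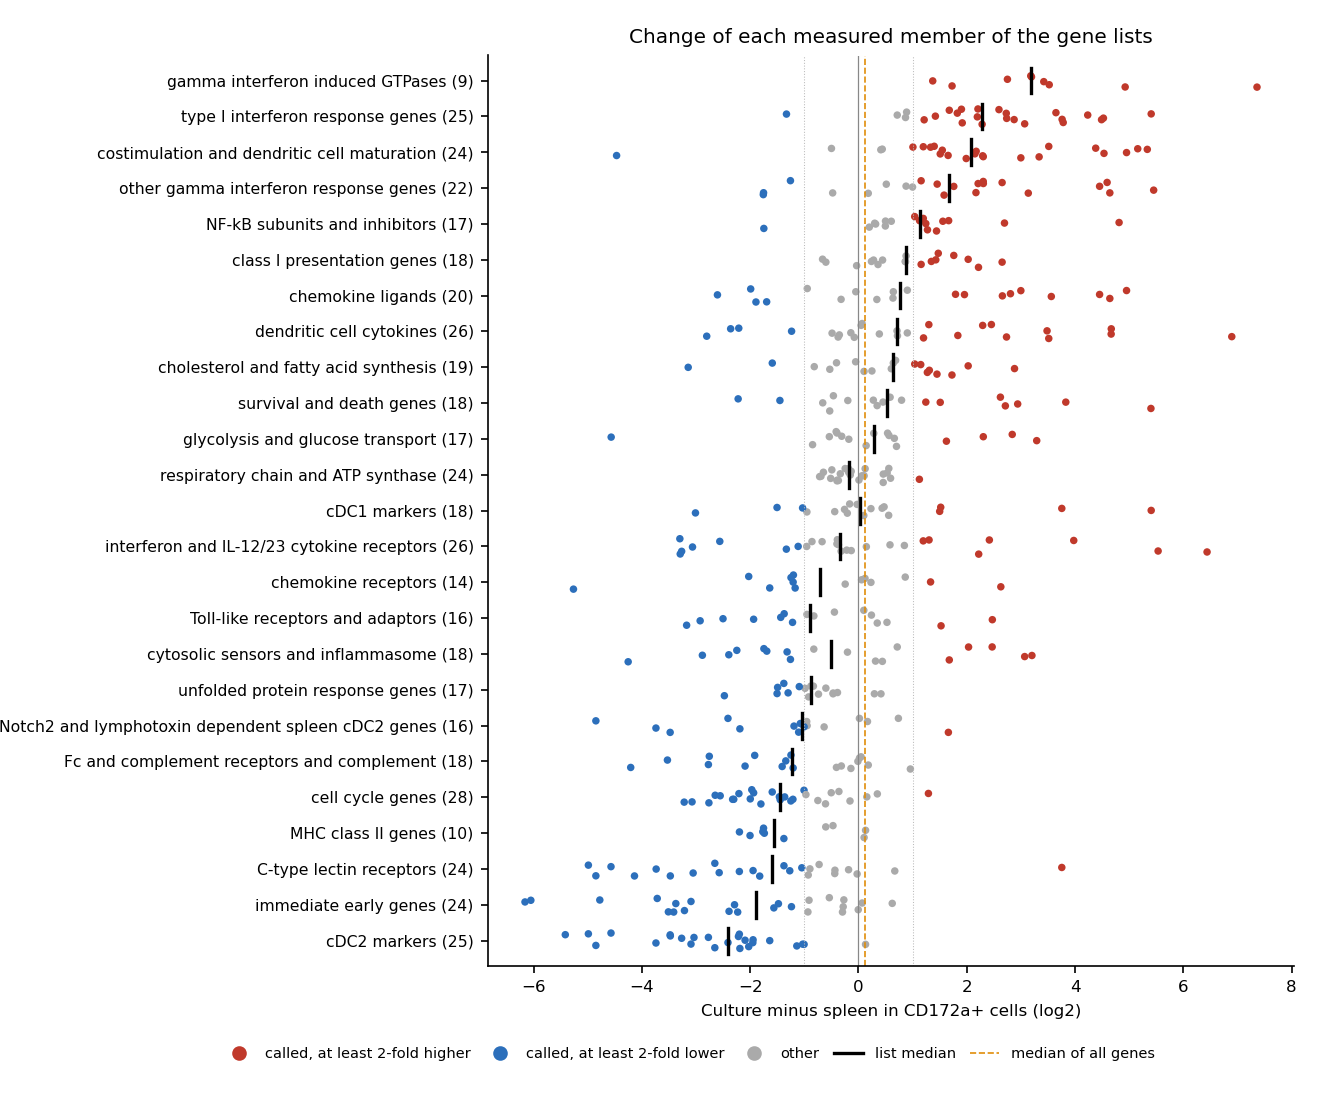
Change from spleen to culture in CD172a+ cells (log2, horizontal axis) of each measured member (dot) of 25 gene lists, with the number measured in brackets. Red and blue dots were called and changed at least 2-fold, black bars are list medians and the dashed line is the median of all 19187 genes (0.12). The interferon and maturation lists lie to the right, and the cDC2 markers, immediate early genes and C-type lectins lie to the left.

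Genes of the NF-kB pathway rose moderately. Of 17 subunits and inhibitors, 10 rose at least 2-fold, or 5 without centring of the arrays (median 1.13), among them the subunits Nfkb2 (1.27) and Relb (1.20) and the inhibitors Nfkbib (1.67) and Nfkbia (1.04). The largest rises were of Tnip3 (4.81), which dampens NF-kB signalling, and Cflar (2.70), an inhibitor of caspase-8. Nfkbid, another nuclear IkB protein, fell by 1.75. Of 17 feedback genes, Socs2 (4.38), Cish (2.12) and Socs3 (1.10), all inhibitors of cytokine receptor signalling, were among 6 that rose at least 2-fold. Dusp6, a phosphatase of ERK, fell by 3.44.

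Cytokine genes separated into a group that rose and a smaller one that fell. Of 26 measured, 11 rose and 4 fell at least 2-fold (median 0.72, or 0.32 without centring). Il6 was at 5.44, 5.50, 5.53 and 5.51 in culture and -1.41, -1.15, -1.82 and -1.22 in spleen, from well under the array median to far above it (119-fold, change 6.90, SE 0.12, limma adjusted p = 1.19e-10). Il6 was under the lower quartile in 2 of the spleen arrays, so the size of its rise is uncertain. Il12b, the p40 subunit shared by IL-12 and IL-23, was at 6.76, 6.78, 6.76 and 6.51 in culture and 2.08, 2.33, 1.75 and 1.97 in spleen (25.5-fold). Il15, which sustains NK and memory CD8 T cells, rose by 4.67, Tnfsf4 (OX40 ligand) by 3.52, Tnfsf15 (TL1A) by 3.48, Ebi3 and Il27, which together form IL-27, by 2.74 and 1.84, and Il23a, the p19 subunit of IL-23, by 1.3. The 4 that fell were Il18 (-2.80), Tgfb1 (-2.36), Il1b (-2.21) and Il10 (-1.24). Il10 was under the lower quartile in all 4 culture arrays and 1 spleen array, so the size of its fall is uncertain. Tnf was at 4.31, 4.29, 3.77 and 3.0 in culture and 4.38, 3.86, 4.17 and 4.36 in spleen, so that its arrays overlapped and it was not called (adjusted p = 0.0729, limma). Tnf was called as lower without centring (-0.75), with quantile normalization (-0.57), without KO culture replicate 1 (-0.54) or WT spleen replicate 2 (-0.48) and in KO arrays alone (-0.88).

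Of 20 chemokine genes, 9 rose and 4 fell at least 2-fold (median 0.77, or 0.38 without centring). Ccl22, a ligand of Ccr4, was at 4.96, 4.94, 5.05 and 5.03 in culture and 0.052, -0.11, -0.072 and 0.29 in spleen, a 31-fold rise. Ccl17, which binds the same receptor, rose by 3.0, Cx3cl1 by 3.56, Cxcl11 by 2.81, Cxcl1, which draws neutrophils, by 2.66, and Ccl5 by 1.96. Ccl3, a ligand of Ccr1, was at 3.84, 4.41, 3.38 and 2.24 in culture and 6.15, 6.04, 6.04 and 6.06 in spleen. It fell by 2.60 (SE 0.22), with the lowest value in KO replicate 2, and its relatives Ccl4 (-1.99), Ccl2 (-1.89) and Xcl1 (-1.70) fell too.

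Of 14 chemokine receptors, 7 fell and 2 rose at least 2-fold (median -0.71). Cxcr4, the receptor for Cxcl12, was at 0.98, 0.63, 0.41 and 0.81 in culture and 5.86, 6.01, 6.11 and 5.92 in spleen, a 38.4-fold fall (change -5.26, SE 0.11, limma adjusted p = 2.94e-10). Cx3cr1 (-2.03) and Ccr2 (-1.64), receptors of monocytes and of some cDC2 cells, also fell. The 2 receptors that rose were Cxcr5 (2.63), which guides cells to B cell follicles, and Ccr7 (1.33), which guides dendritic cells to lymph nodes and was at 6.64 to 6.73 in culture and 5.14 to 5.44 in spleen.

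Costimulation and maturation genes were higher in culture, 20 of 24 by at least 2-fold with 1 lower (median 2.07). Fscn1, the actin-bundling protein of mature dendritic cells, was at 7.05, 7.0, 6.97 and 7.03 in culture and 2.53, 2.72, 2.19 and 2.46 in spleen and rose 23.2-fold (adjusted p = 1.06e-10, limma). Cd200, a ligand that restrains myeloid cells, was at 5.55, 5.50, 5.61 and 5.68 and 0.079, 0.48, 0.054 and 0.37. Cd70, the ligand of CD27 on T cells, rose by 5.16, Cd40, the receptor through which T cells license dendritic cells, by 3.34, and Cd86 and Cd80, the ligands of CD28, by 1.66 and 1.55. Pdcd1lg2 (PD-L2) lay at the 2-fold line (1.01). The 1 member that fell that far was Havcr2 (TIM-3), at -0.07, -0.35, -0.78 and -0.82 in culture and 3.88, 3.91, 4.08 and 3.99 in spleen. Cd83, a maturation marker, fell by 0.50.

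**Figure D3:**
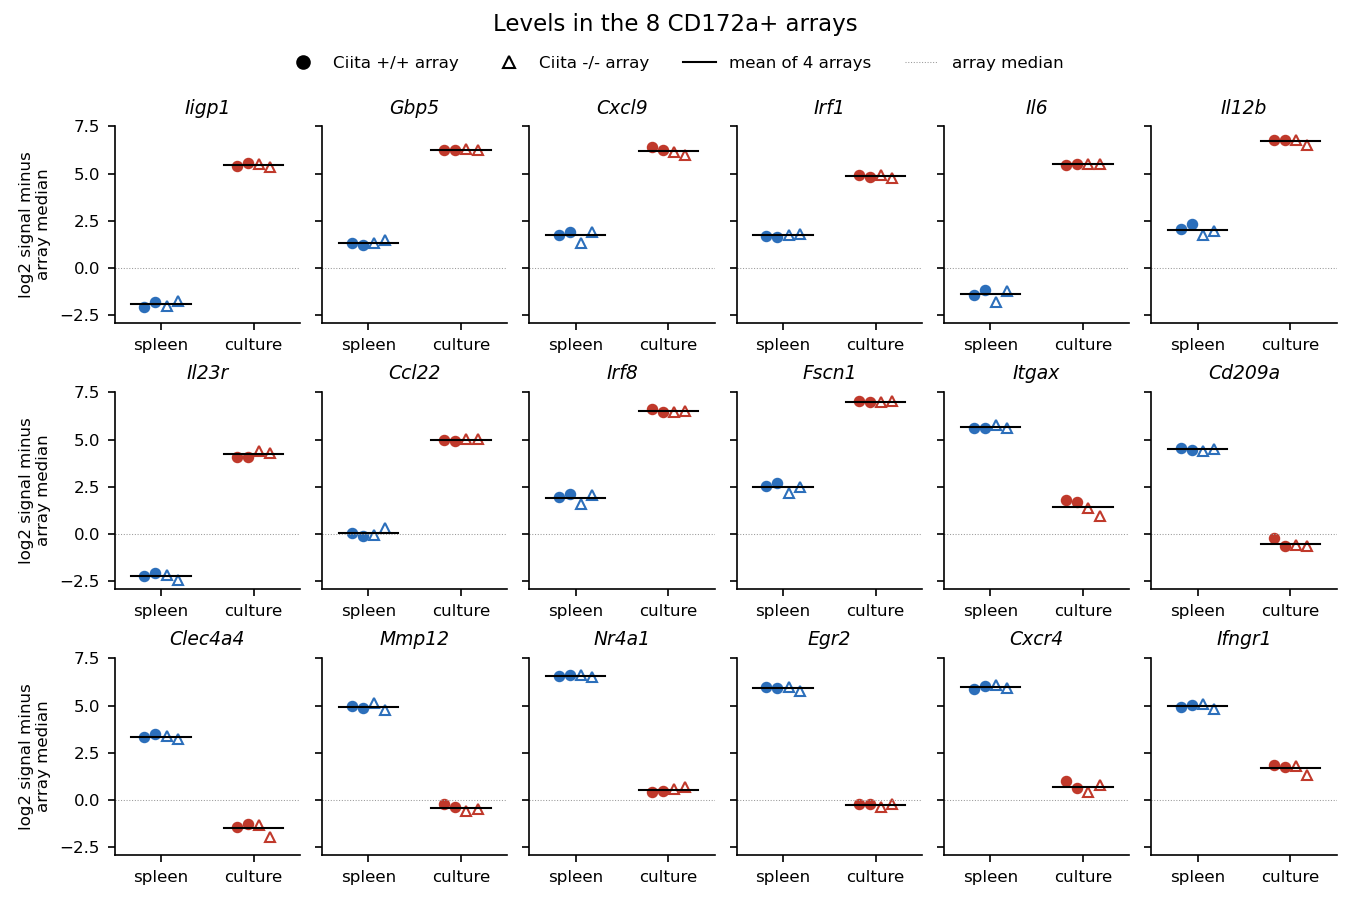
Level of 18 genes (log2 signal minus array median, vertical axis) in each of the 4 spleen (blue) and 4 culture (red) CD172a+ arrays, with filled circles for WT, open triangles for KO and black bars for the mean of 4. The 10 genes from Iigp1 to Fscn1 are higher in every culture array than in every spleen array, and the 8 from Itgax to Ifngr1 are lower.

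Receptors for cytokines moved in both directions, 7 of 26 up and 7 down by at least 2-fold (median -0.34). Il23r, which pairs with Il12rb1 to bind IL-23, was at 4.09, 4.10, 4.37 and 4.31 in culture and -2.21, -2.07, -2.17 and -2.44 in spleen. The spleen values were under the lower quartile of all 4 arrays, the measured change was 6.44 (SE 0.072, limma adjusted p = 2.96e-11), and Il12rb1 rose by 2.22. Il2ra (CD25), the alpha chain of the IL-2 receptor, was at 4.76, 4.68, 4.59 and 4.43 and -1.11, -1.14, -0.89 and -0.54, and Il15ra, which presents IL-15 to other cells, rose by 3.98. The chain of the gamma interferon receptor that binds the ligand, Ifngr1, was at 1.83, 1.74, 1.78 and 1.34 in culture and 4.95, 5.02, 5.11 and 4.82 in spleen, a 9.84-fold fall. Its partner Ifngr2 had a change of -0.13 and was not called, the sign of that change turned with interquartile scaling (0.17, not called), and it was called as lower without centring (-0.53), with quantile normalization (-0.35) and without WT culture replicate 1 (-0.21). Csf3r (-3.29), Csf1r (-3.27) and Il6ra (-3.07), receptors for G-CSF, M-CSF and IL-6, fell.

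Sensors of microbes moved in both directions. Of 16 Toll-like receptors and adaptors, 7 fell and 2 rose at least 2-fold (median -0.89). Within the LPS receptor complex, Cd14 (-3.17) and Tlr4 (-1.44) fell, while Ly96 rose by 2.47 and the adaptor Myd88 by 1.53. Tlr4 was under the array median in all 8 arrays. It was under the lower quartile in all 4 culture and 2 of the spleen arrays, so the size of its fall is uncertain. Cd180 (-2.92) and its partner Ly86 (-2.50) fell. Of 18 cytosolic sensors and inflammasome genes, 8 fell and 5 rose at least 2-fold. Nlrp3, an inflammasome sensor, was at 0.15, 0.048, -0.29 and 0.29 in culture and 4.33, 4.32, 4.33 and 4.23 in spleen, a 19.1-fold fall, and Naip5 (-2.88), Nlrc4 (-2.39) and Aim2 (-2.25), sensors of other inflammasomes, fell as well. Casp4 (caspase-11), which binds LPS in the cytosol, rose by 3.20, and Cgas, which senses DNA, by 2.03.

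Genes that mark cDC2 cells were lower across nearly the whole list: 24 of 25 fell at least 2-fold and the median change was -2.41. The mean of the 25 genes was between 0.31 and 0.56 in the culture arrays and between 3.10 and 3.17 in the spleen arrays. The exception was Irf4, a transcription factor that cDC2 cells require, at 4.02, 3.80, 4.09 and 3.86 in culture and 3.73, 3.84, 3.90 and 3.77 in spleen, which was not called (adjusted p = 0.142, limma). The direction of Irf4 depended on the scaling, with a change of -0.26 without centring and 0.42 with arrays scaled to 1 interquartile range, both called. Cd209a (DC-SIGN), a C-type lectin, was at -0.19, -0.61, -0.61 and -0.62 and 4.58, 4.46, 4.39 and 4.49, a 31.8-fold fall. Clec4a4 (DCIR2), an inhibitory lectin of spleen cDC2 cells, was at -1.42, -1.29, -1.3 and -1.96, under the lower quartile of each culture array, against 3.35, 3.47, 3.37 and 3.23 in spleen. Others that fell were Cd7 (-5.42), Clec4a2 (-4.57), Cd4 (-3.74), Ltb (-3.48), which encodes lymphotoxin beta, Esam (-2.19) and Dtx1 (-2.41), a Notch target. In these sorted populations, fewer cells of a type and less RNA per cell cannot be told apart.

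Of 16 genes tied to Notch2 and lymphotoxin in spleen cDC2 cells, which in part also stand in the cDC2 list, 9 fell at least 2-fold and 1, Notch1 (1.66), rose. Notch2 itself fell by 1.10. Of 24 C-type lectins, 15 fell and 1 rose at least 2-fold (median -1.60). Besides those above, Clec4b1 (-4.14), Clec4n (dectin-2, -3.74) and Clec10a (-2.65) fell, and the 1 that rose was Ly75 (DEC-205), an endocytic receptor, by 3.76. Of 18 Fc and complement receptors and complement genes, 10 fell and none rose at least 2-fold, among them Fcgr2b (-3.53), the inhibitory IgG receptor. Markers of macrophages and monocytes moved in the same direction: 7 of 12 on that list fell at least 2-fold, among them Cd68 (-3.75), Lyz2 (-3.55) and Adgre1, and the list's summed level was -3.94 to -2.55 in culture and 13.28 to 17.25 in spleen. Of 10 red pulp macrophage markers, 5 fell, including Spic (-3.02) and Treml4 (-4.29), with summed levels of -3.49 to -2.62 and 3.90 to 12.42. Summed levels were also lower in every culture array than in every spleen array for the markers of NK cells (10 genes, -11.06 to -10.20 against -2.94 to -1.31, 2 of 10 at least 2-fold lower). The same held for T cells (8 genes, -7.64 to -6.12 against -1.45 to -0.72, 3 lower). B cell markers (10 genes) summed to -6.88 to -6.43 against -2.21 to 0.34, with 4 lower and 1 higher, and neutrophil markers (15 genes) to -15.61 to -13.95 against -9.33 to -5.84, with 2 lower. The platelet and megakaryocyte, the mast cell, basophil and eosinophil, and the stromal and osteoclast lists were separated in the same way. The erythroid and plasma cell sums overlapped between sources. Over all genes, 13947 of 19187 had culture and spleen arrays that did not overlap, and 10.4% were called at least 2-fold lower. The part of these cell types in the falls was not tested.

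Integrins and adhesion genes changed in both directions, 9 of 30 up and 10 down by at least 2-fold. Itgax (CD11c), a general marker of dendritic cells, was at 1.79, 1.68, 1.39 and 0.94 in culture and 5.62, 5.62, 5.76 and 5.61 in spleen, a 18.5-fold fall (change -4.21, SE 0.094, limma adjusted p = 4.57e-10). Its beta chain Itgb2 fell by 3.31, and the other alpha chains of Itgb2, Itgam (-2.77) and Itgal (-2.42), fell too. Itga5 and Itgb1, which form the fibronectin receptor, rose by 2.83 and 1.44, and Itgb8, part of an integrin that activates TGF-beta, by 2.74. Mmp25, a membrane metalloproteinase, rose by 5.22, and Cnn3 and Actn1, which bind actin, by 4.21 and 2.70. Mmp12, the macrophage elastase, was at -0.22, -0.36, -0.61 and -0.46 in culture and 4.95, 4.85, 5.12 and 4.74 in spleen and fell 40.2-fold.

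Transcription factors of dendritic cells split as well, with 10 of 46 higher and 13 lower by at least 2-fold. The balance depended on the scaling, with 15 higher and 9 lower under interquartile scaling, 11 and 11 under quantile normalization and 9 and 15 without centring. Irf8, a factor that cDC1 cells require and that is induced by gamma interferon, was at 6.60, 6.47, 6.47 and 6.50 in culture and 1.94, 2.09, 1.59 and 2.06 in spleen. The change of 4.59 (SE 0.097, 24.1-fold, limma adjusted p = 3.42e-10) was the largest of the 46, and the capitals in its promoter above mark 2 GAS-like matches. Stat5a, Stat4 and Stat3, which transmit cytokine signals, rose by 2.70, 2.65 and 1.69, Tcf4 (E2-2) by 2.65 and Id2 by 1.68. Tcf4 is also among 9 markers of plasmacytoid dendritic cells, of which 3 rose and 1 fell at least 2-fold and whose summed level was 10.70 to 11.41 in culture and 6.13 to 7.34 in spleen. Their defining gene Siglech was at -0.47 to -0.24 in culture and -0.069 to 0.051 in spleen. Ahr, the aryl hydrocarbon receptor, was at 0.63, 0.62, 0.78 and 0.76 and 4.08, 4.14, 4.09 and 4.17, a 10.7-fold fall. Klf4 (-3.09), which some cDC2 cells require, Myc (-3.09), Klf2 (-2.29) and Spi1 (PU.1, -1.58) fell. Of 18 cDC1 markers, 4 rose, namely Ifi205, Ly75, Cadm1 (1.52) and Cd8a (1.5), and 3 fell at least 2-fold, the largest being Wdfy4 (-3.01), which cross-presentation requires.

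Immediate early genes, which are switched on within minutes of a stimulus, were lower in culture: 15 of 24 fell at least 2-fold and none rose that far (median -1.90). Nr4a1 (Nur77), an orphan nuclear receptor, was at 0.40, 0.47, 0.56 and 0.70 in culture and 6.58, 6.63, 6.64 and 6.49 in spleen, 66.3-fold lower. Egr2, a zinc finger factor, was at -0.23, -0.19, -0.39 and -0.20 and 5.96, 5.91, 6.0 and 5.75, 71.5-fold lower (adjusted p = 2.96e-11, limma). Egr1 (-4.78), Fosb (-3.72), Fosl2 (-3.51), Nr4a2 (-3.41) and Fos (-3.37) fell as well. Nr4a3, of the same family as Nr4a1, was at 4.46, 4.44, 4.41 and 4.22 in culture and 4.39, 4.35, 4.33 and 4.48 in spleen and was not called (adjusted p = 0.956, limma), though its small change was called, with opposite signs, without centring (-0.40) and with interquartile scaling (0.33).

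The remaining genes among the 20 largest falls were Adgre5 (CD97), an adhesion receptor, at -0.62, -0.87, -0.85 and -0.81 in culture and 5.67, 5.70, 5.78 and 5.62 in spleen (89.1-fold lower), and Rgs18, a regulator of G protein signalling, at -2.46, -2.61, -2.65 and -2.83 and 3.55, 3.53, 3.70 and 3.65. These were the 2 largest falls among all genes tested. The others were Kmo (-4.90), an enzyme of tryptophan breakdown, Ptpn22 (-5.25), a tyrosine phosphatase, Pld4 (-5.26), Sh2d1b1 (-5.22), Adgrl3 (-5.21), Sla (-5.20), an adaptor protein, Cd300ld (-4.96), Abcg3 (-4.87), Igsf6 (-4.83) and Bank1 (-4.75), an adaptor of B cells. Of the 20 largest falls, 16 had a culture mean below the array median, and 7 were under the lower quartile in every culture array.

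Proliferation genes were lower in culture, 19 of 28 by at least 2-fold with 1 higher, Tyms (1.29), and a median change of -1.45. Ccnb2, a mitotic cyclin, was at 0.002, 0.24, 0.098 and 0.074 and 3.28, 3.30, 3.21 and 3.50, and Kif11 (-3.07), a spindle motor, and Mcm7 (-2.76), part of the replication helicase, fell. Survival genes included Bcl2l1 (Bcl-xL), at 5.80, 5.72, 5.74 and 5.87 in culture and 0.36, 0.47, 0.20 and 0.49 in spleen (42.3-fold higher), and also the death receptor Fas (3.83) and the proapoptotic Bcl2l11 (Bim, 2.94), with 7 of 18 up and 2 down at least 2-fold. Among 17 glycolysis genes, 4 rose, led by Pfkfb3 (3.29), which stimulates glycolysis, and 1 fell, the glucose transporter Slc2a3, at -0.17, -0.22, -0.31 and -0.025 and 4.33, 4.40, 4.64 and 4.17. Respiratory chain genes had a median change of -0.17, with 1 of 24 changed at least 2-fold, Cox5a (1.13), and the sign of that median turned with interquartile scaling (0.14). Without centring it was -0.56, with 3 lower and none higher by at least 2-fold, and with quantile normalization none passed. Of 19 genes of cholesterol and fatty acid synthesis, 8 rose (4 without centring), all of the sterol branch, such as Idi1 (2.88) and Hmgcs1 (2.03), and the 2 that fell were the desaturases Scd2 (-3.14) and Scd1 (-1.59). Of 17 unfolded protein response genes, 6 fell at least 2-fold (11 without centring) and none rose that far. Herpud1, which acts in the degradation of misfolded proteins, fell by 2.48.

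Whether the change from spleen to culture depended on Ciita was tested as the difference between the KO change and the WT change. It was called for 4 of 19187 genes (0.0208%), and 3 of them were class II genes. H2-Oa, a chain of the peptide-exchange regulator H2-O, was at 4.75, 4.80, 1.66 and 1.59 in culture and 5.89, 6.0, 4.93 and 4.79 in spleen, with changes of -1.17 in WT and -3.23 in KO (difference -2.06, SE 0.12, limma adjusted p = 0.000221). H2-DMa, a chain of the peptide-exchange factor H2-DM, was at 5.22, 5.26, 1.99 and 1.98 and 6.0, 5.99, 4.70 and 4.83, with changes of -0.76 in WT and -2.78 in KO. H2-Eb1, a chain of the class II molecule I-E, was at 6.61, 6.55, 1.13 and 0.98 and 6.78, 6.76, 3.38 and 3.86, with changes of -0.19 in WT and -2.57 in KO. The fourth gene, BC051142, also on chromosome 17, was at -1.22, -1.25, -1.28 and -1.35 and 0.23, 0.20, -0.88 and -0.88, higher in the WT spleen arrays alone. Its culture levels lay close to the lower quartile of the arrays in both genotypes, so the size of its difference in change is uncertain. The count hinges on single arrays: it was 240 without KO culture replicate 1 and 2 without WT culture replicate 1, WT spleen replicate 1 or WT spleen replicate 2. H2-Oa and H2-DMa stayed called in each of these fits, whereas H2-Eb1 lost its call in the last 3 (adjusted p 0.0534 to 0.063, limma) and BC051142 in those and 3 more.

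H2-Aa, H2-Ab1, H2-Eb1, H2-Eb2, H2-DMa, H2-Oa and H2-Ob were lower in the KO than in the WT arrays of both sources and lowest in KO culture. Of 10 list members, Ciita included, 6 fell at least 2-fold between spleen and culture over both genotypes and none rose (median -1.56). Among these 6 were Ciita, H2-Eb1 and H2-DMa, which changed less than 2-fold in WT arrays alone. For none of the 10 were all culture arrays apart from all spleen arrays. In WT, H2-Aa and H2-Ab1, the chains of I-A, changed by 0.076 and 0.067, so their levels stayed between 6.54 and 6.82 in the 4 WT arrays. In KO they changed by -1.02 and -1.28. The difference between genotypes was -1.09 (adjusted p = 0.0683) and -1.34 (adjusted p = 0.562), neither called by limma. Without KO culture replicate 1, both were called (-1.15, adjusted p = 0.0125, and -1.79, adjusted p = 0.00929, limma), and H2-Aa was also called with interquartile scaling (-1.34) and with robust moderation (adjusted p = 0.0212, limma). H2-Ob, the partner of H2-Oa, changed by -1.27 in WT and -2.74 in KO, and H2-Eb2 by -1.65 and -1.83. Without KO culture replicate 1, the difference for H2-Ob was called too (-1.84, adjusted p = 0.00985, limma). Cd74, the invariant chain, was at 6.55, 6.48, 6.0 and 5.84 in culture and 6.51, 6.49, 5.64 and 5.70 in spleen and was not called. Its direction too depended on the scaling, from -0.26 without centring to 0.60 with interquartile scaling, both called. It was also called as higher with robust moderation, with all 16 arrays in the fit, without KO culture replicate 2 and in KO arrays alone (0.13 to 0.25). Ciita was at 3.28, 3.70, 1.46 and 0.25 in culture and 4.10, 3.99, 3.99 and 3.63 in spleen and changed by -0.55 in WT and -2.95 in KO (difference -2.40, SE 0.45, adjusted p = 0.364, limma). Without KO culture replicate 1 that difference was called (-3.0, adjusted p = 0.00202, limma). The KO arrays were thus low in culture and overlapped the WT arrays in spleen, and since the deleted part is not given, the signal of this probe set does not check the genotype labels.

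**Figure D4:**
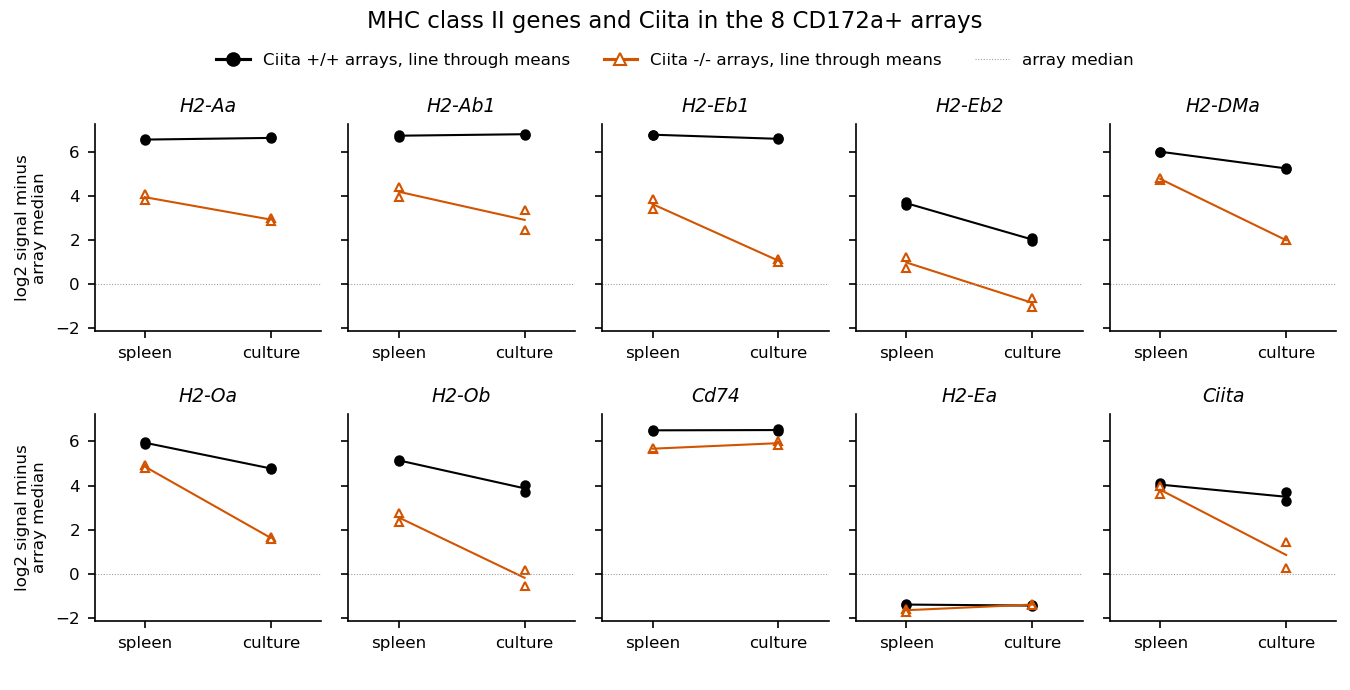
Level of 9 MHC class II genes and of Ciita (log2 signal minus array median, vertical axis) in spleen and culture CD172a+ arrays, with black circles for WT, orange triangles for KO and lines through the means of 2 arrays. The KO lines of H2-Oa, H2-DMa and H2-Eb1 fall more steeply than the WT lines, while H2-Ea stays under the array median throughout.

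To see where CD172a+ cells differed in their change from CD24+ cells, which stand for the cDC1 subset, the CD172a minus CD24 difference was taken within each of the 8 mice and compared between culture and spleen. The changes differed for 5431 genes (28.3%). By at least 2-fold, 415 genes (2.16%) had a more positive change in CD172a+ cells and 761 (3.97%) a more negative one. Irf8 rose by 4.59 in CD172a+ cells and changed by 0.76 in CD24+ cells, a difference of 3.83 (adjusted p = 1.07e-07, limma). Ifi205 rose by 5.41 against 0.80 (difference 4.61), Cxcl9 by 4.45 against 1.48 (2.98) and Il12b by 4.67 against 2.17 (2.50). Lima1, an actin-binding protein, rose by 3.97 in CD172a+ cells and changed by -0.74 in CD24+ cells (4.71), and Gprc5c by 3.53 against -0.83 (4.36). P3h2, a collagen prolyl hydroxylase, and Serpinb8 had differences of 4.15 and 3.90. For Gpr141b, Clec4b2 and Tlr3, a sensor of double-stranded RNA, the difference (5.74, 3.60 and 2.82) came with changes in CD24+ cells of -5.70, -4.52 and -3.78 beside smaller changes in CD172a+ cells.

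In the other direction, Mmp12 changed by -5.33 in CD172a+ and -0.28 in CD24+ cells, a difference of -5.05 (adjusted p = 7.2e-08, limma). Clec4a4 (-4.85 against -0.022, difference -4.83) and Itgax (-4.21 against -1.0, difference -3.20) changed more in CD172a+ than in CD24+ cells. Clec4a4 was under the lower quartile in all 4 CD172a+ culture arrays. Levels in CD24+ cells are not given here, so a gene at background in them cannot be told from an unchanged one. Lyz2, which encodes lysozyme, changed by -3.55 against 0.85 (-4.41), Entpd1 (CD39), which breaks down ATP, by -3.32 against 1.03 (-4.35), and Tespa1 by -2.56 against 2.30 (-4.86). Hpgds, a prostaglandin D synthase, Dscam and Gpr141 had differences of -4.55, -4.54 and -4.39. Pdcd1lg2 rose by 1.01 in CD172a+ cells against 4.61 in CD24+ cells (-3.60), and Ptgs2 (COX-2), the enzyme that starts prostaglandin synthesis, changed by -0.86 against 3.27 (-4.13). Cxcl9, Il12b, Tlr3, Itgax, Pdcd1lg2 and Ptgs2 were chosen after their values were seen.

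The marker lists of the subsets differed in their changes. Of 25 cDC2 markers, 21 had a called more negative change in CD172a+ than in CD24+ cells and none a more positive one (medians -2.41 and -1.23), where 14.5% of all genes were called more negative. Of 18 cDC1 markers, 16 had a called more positive change in CD172a+ cells and 2 a more negative one (medians 0.037, which was -0.36 without centring, and -1.25), where 13.8% of all genes were called more positive. Both lists hold genes that mark 1 subset, so spleen levels can differ between the subsets from the start. A gene that is low in 1 subset has little room to fall there. The part of the starting levels in these counts was not tested. The interferon lists had median changes of 3.20 in CD172a+ and 3.29 in CD24+ cells for the 9 GTPases and of 2.28 and 2.94 for the 25 type I genes. Of the type I genes, 15 had a called less positive or more negative change in CD172a+ than in CD24+ cells and 5 a more positive one, and of the GTPases 2 each way.

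**Figure D5:**
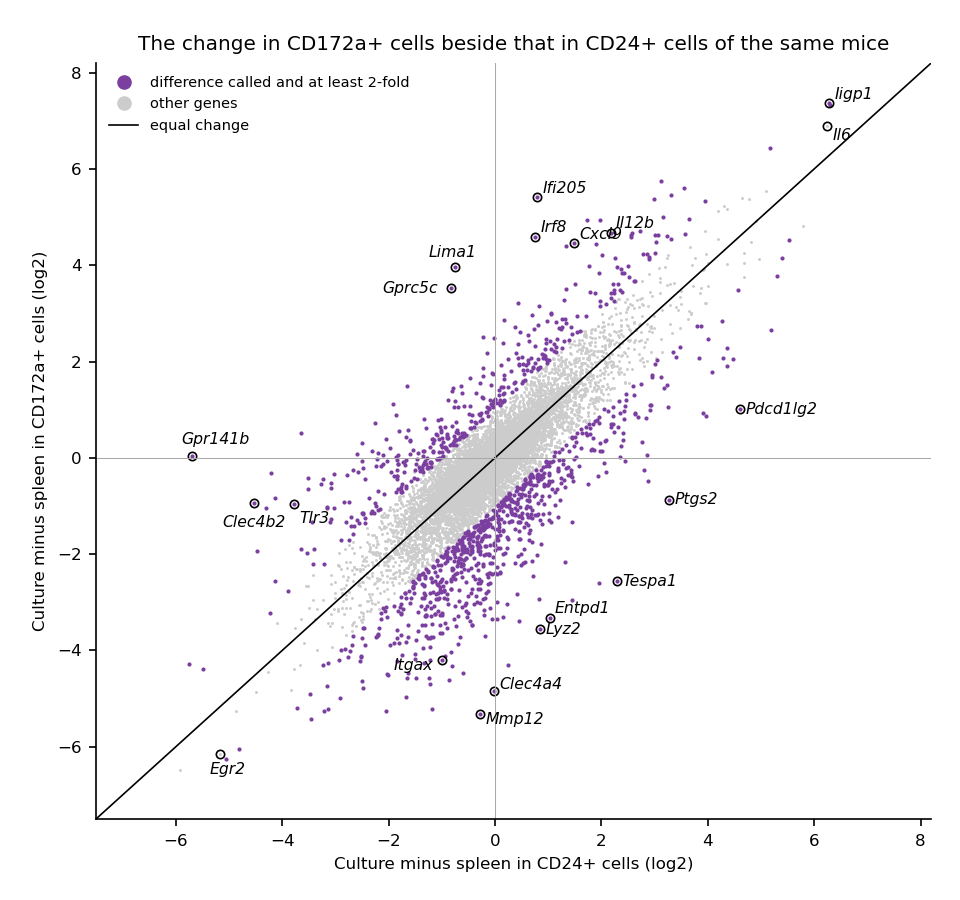
Change from spleen to culture (log2) in CD172a+ cells (vertical axis) against that in CD24+ cells of the same mice (horizontal axis) for 19187 genes. Purple dots are genes whose changes differed with an adjusted p under 0.05 and by at least 2-fold, and open circles are named genes. Irf8, Ifi205, Lima1 and Gprc5c lie above the line of equal change, and Mmp12, Clec4a4, Lyz2, Entpd1, Tespa1, Ptgs2 and Pdcd1lg2 lie below it.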

How the data were processed

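RNA of sorted CD172a+ and CD24+ cells was amplified with the Ovation Pico WTA system and, per the labels' protocols, measured on Affymetrix Mouse Gene 1.0 ST arrays. Each deposited value is the log2 signal of a probe set. The authors' background correction, normalization and summarization were not given in the sources used here. Array quartiles match within a source and differ between sources.

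Each array was centred on its median. Of 30177 probe sets, 21789 had 1 gene symbol, and 1621 with several and 6767 with none were left out. The probe set with the highest mean over the 8 arrays stood for its gene, and 751 genes on chromosomes X and Y were left out.

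limma 3.58.1 in R 4.3.3 was fitted with 1 mean per source and genotype (4 residual and 5.1 prior degrees of freedom), 2-sided, with Benjamini-Hochberg adjustment over 19187 genes. The contrasts were culture minus spleen, its genotype difference, and, on the difference between the CD172a and CD24 arrays of a mouse (paired by the mouse number in the labels), its subset difference. Across genes, the deviations of a mouse's 2 arrays correlated at 0.205 (spleen KO), -0.0978 (spleen WT), 0.394 (culture KO) and 0.208 (culture WT). Replicate numbers across groups mark different mice. The code was tested on simulated data.

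The comparison, gene lists and naming rule were chosen with earlier results of these data known. Lists are described by counts and medians. Named were Iigp1, Il23r, Irf8, the 20 largest rises and falls without overlap between arrays, up to 8 called members per list plus members with a role in the text, called genotype differences, class II genes and 8 subset differences each way. Alternatives covered centring, quantile and interquartile scaling, low genes, probe set choice, unnamed probe sets, moderation, the replicate block, all 16 arrays, genotype terms, thresholds and each array left out.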

Additional observations from a re-analysis of the deposited data

Results flagged for a closer look

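For 4 genes the change from spleen to culture in CD172a+ cells differed between genotypes by the interaction test (KO change minus WT change): H2-Eb1 by -2.38, H2-Oa by -2.06, H2-DMa by -2.02 and BC051142 by 1.02. BC051142 lay close to the lower quartile in the culture arrays of both genotypes, so the size of its difference is uncertain. The share of genes called in that comparison was 0.0208%.

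Among the genes named above, the change differed between CD172a+ and CD24+ cells of the same mice, by the within-mouse test, with a more positive change in CD172a+ cells for Gpr141b (5.74), Lima1 (4.71), Ifi205 (4.61), Gprc5c (4.36), P3h2 (4.15), Serpinb8 (3.90), Irf8 (3.83), Clec4b2 (3.60), Cxcl9 (2.98), Tlr3 (2.82) and Il12b (2.50). It was more negative for Mmp12 (-5.05), Tespa1 (-4.86), Clec4a4 (-4.83), Hpgds (-4.55), Dscam (-4.54), Lyz2 (-4.41), Gpr141 (-4.39), Entpd1 (-4.35), Ptgs2 (-4.13), Pdcd1lg2 (-3.60) and Itgax (-3.20). The share of genes called in that comparison was 28.3%. Groups of 2 arrays are too small for an outlier rule, so none was applied.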

How the results depend on the processing

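Without centring, 801 genes were at least 2-fold higher and 3259 lower, against 1281 and 1995, and 16 of 92 list counts moved by over 1.5 times, while quantile normalization moved 4 of 92. The count of called genes was 9411 with low genes left out, which tested fewer genes, and 5192 when the change itself had to exceed 0.5 (limma treat). With 1 array left out, 14243 to 14673 genes were called, 1277 to 1316 of them at least 2-fold higher and 1951 to 2034 lower. For the genotype difference the same ranges were 2 to 240 genes called, 0 to 31 at least 2-fold higher and 2 to 91 lower. For the subset difference they were 4362 to 5555, 401 to 473 and 718 to 842. The count of genotype differences at least 2-fold higher, which is BC051142 alone, was 0 with quantile normalization, with interquartile scaling and with the replicate block.

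With the replicate number as a block, 14863 genes were called between sources, 3 genotype differences and 5183 subset differences, against 15028, 4 and 5431. Deviations of arrays with the same replicate number correlated at -0.123 to 0.0465 across genes. Such values cannot show a lack of pairing, since the CD172a and CD24 arrays of the same mouse correlated at -0.0978 in spleen WT. By the labels, each CD172a array has its own mouse number.

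Of 194 genes followed over the settings of the source comparison, called ones kept their direction, and 2 of them lost their call under 1 setting each: Cd83 when the change had to exceed 0.5, and Ciita in WT arrays alone (-0.55). H2-Aa and H2-Ab1 were not among the 194. They changed by 0.076 and 0.067 in WT arrays alone and fell in KO arrays. Of the followed genes not called, the sign of Cd74 turned without centring (-0.264) and with quantile normalization (-0.0348), and that of Irf4 likewise (-0.265 and -0.0633). The sign of Ifngr2 turned with interquartile scaling (0.168) and that of Tnf in WT arrays alone (0.175). Nr4a3 turned with interquartile scaling (0.327), in WT arrays alone (0.0804) and with single arrays left out (-0.0499 to 0.0419 over the 8 such fits). The genotype difference of H2-Eb2 turned without KO culture replicate 2 (0.017) and without KO spleen replicate 2 (0.058), and with 1 array left out it lay between -0.4229 and 0.058. The cause was not tested. The 22 subset differences kept direction and call in every setting run. No detection calls and no untreated cultures are among the data used, which limits what low signals and the contrast of sources can show.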
